A study of Mus musculus with 56 samples.

Results

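Expression of the aryl hydrocarbon receptor (AHR) pathway was followed in mouse liver through 8 genes, Ahr, Arnt, Ahrr, Cyp1a1, Cyp1a2, Cyp1b1, Tiparp and Aldh3a1, out of the 45513 genes counted in each of 56 mice. The genes were listed by name, as the receptor, its partner, its repressor and its best known targets, and they were selected on results of these same counts already known. Their levels and fold changes are therefore a description, and the calls of the fit support nothing further about them. The animals were female APOE*3Leiden.CETP mice of 9 to 14 weeks at the start, which carry human transgenes for a variant apolipoprotein E and for cholesteryl ester transfer protein and serve as a model of human-like lipoprotein metabolism. All 7 groups of 8 mice received a Western-type diet with 15% cacao butter and 0.15% cholesterol, which the control mice shared. Control mice received vehicle (5% carboxymethyl cellulose) by gavage. Imatinib was given at 150 mg/kg in 2 gavages per day, nilotinib at 10 or 30 mg/kg and ponatinib at 3 or 10 mg/kg in 1 gavage per day with vehicle as the other gavage. The 3 drugs inhibit the BCR-ABL1 tyrosine kinase, and nilotinib was derived from the structure of imatinib. A further group received N-nitro-L-arginine methyl ester (L-NAME), an inhibitor of nitric oxide synthase, at 0.12 to 0.20% in the drinking water with vehicle gavage. Livers of the drug groups and controls were taken after 16 weeks of treatment, and the time on L-NAME is not given in the sources used here.

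AHR is a transcription factor that rests in the cytosol with heat shock protein 90 and the co-chaperone p23. When a ligand binds, which may be a dioxin, a polycyclic aromatic compound or a product of tryptophan breakdown, the receptor moves to the nucleus, pairs with ARNT and binds DNA at the core letters GCGTG. Its best known targets in liver are Cyp1a1, which is almost silent without a ligand, and Cyp1a2, which hepatocytes around the central vein express at all times. Cyp1b1 encodes the remaining enzyme of the family. Ahrr encodes a repressor that competes with AHR for ARNT, Tiparp a mono-ADP-ribosyltransferase that limits AHR, and Aldh3a1 an aldehyde dehydrogenase.

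Between 5342379 and 97473341 reads per mouse fell on genes, with a median of 7570238. The deepest library, of an L-NAME mouse, stood far above the next, which held 17996732 reads. The labels give no sequencing date or batch. Levels are given in CPM, reads of a gene scaled to a common effective library size. There were 6 libraries that stood apart: the deepest one and 5 others, of nilotinib 10 mg/kg (2 mice), nilotinib 30 mg/kg, ponatinib 3 mg/kg and ponatinib 10 mg/kg (1 mouse each), whose median correlation with the other libraries was 0.89 to 0.908 against 0.935 for the median library. No control or imatinib library was among them. The share of unique reads outside annotated genes was 7.97% ± 0.42 (SD, n = 8) in control and 10.04% ± 1.82 in imatinib mice (two-sided exact permutation test, p adjusted over 6 groups = 0.00131), and it was also higher with the other 5 treatments (exact permutation tests, adjusted p = 0.000233 to 0.0466). Its part in the results was not tested beyond a fit that holds it as a covariate. In a whole liver, fewer cells of a type and less RNA per cell cannot be told apart.

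Cyp1a1 and Cyp1a2 lie head to head on mouse chromosome 9 (GENCODE vM21, GRCm38), Cyp1a2 on the minus strand at chr9:57676937-57683703 and Cyp1a1 on the plus strand at chr9:57687928-57703824. Their RefSeq start sites are 13958 bases apart. The 250 bases before each start site are shown because these were the members with the large differences, from RefSeq on GRCm38.p6, at chr9:57697363-57697612 for Cyp1a1 and chr9:57683656-57683905 for Cyp1a2. They are written 5′ to 3′ along the gene, with any GCGTG, or its reverse complement CACGC, in capitals.
Cyp1a1: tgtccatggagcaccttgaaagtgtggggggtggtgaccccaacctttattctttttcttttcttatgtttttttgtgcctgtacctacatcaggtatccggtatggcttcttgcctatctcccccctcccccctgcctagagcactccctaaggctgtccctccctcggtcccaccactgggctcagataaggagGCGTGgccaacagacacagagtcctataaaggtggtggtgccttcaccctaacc
Cyp1a2: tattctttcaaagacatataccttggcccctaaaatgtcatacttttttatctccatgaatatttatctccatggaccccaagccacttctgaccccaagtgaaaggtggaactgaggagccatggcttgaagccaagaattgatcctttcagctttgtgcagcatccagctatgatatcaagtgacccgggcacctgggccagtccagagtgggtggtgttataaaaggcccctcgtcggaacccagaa
The Cyp1a1 stretch held the core letters once, at 54 to 50 bases before the start, and the Cyp1a2 stretch did not hold them, which says only that these letters are not in this window. The enhancers through which AHR is known to act on Cyp1a1 lie further upstream.

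The same letters stand before the starts of 4 other members, shown to place the matches: Tiparp (chr3:65528262-65528302, plus strand), Arnt (chr3:95434345-95434384, plus strand), Cyp1b1 (chr17:79715112-79715151, minus strand) and Ahrr (chr13:74292342-74292451, minus strand).
Tiparp: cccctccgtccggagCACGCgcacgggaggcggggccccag
Arnt: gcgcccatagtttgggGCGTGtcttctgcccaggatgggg
Cyp1b1: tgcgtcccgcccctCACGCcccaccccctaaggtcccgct
Ahrr: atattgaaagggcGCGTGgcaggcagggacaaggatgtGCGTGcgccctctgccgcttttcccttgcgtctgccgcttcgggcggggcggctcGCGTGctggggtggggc
The match lay 170 to 166 bases before the start of Tiparp, 29 to 25 before that of Arnt and 76 to 72 before that of Cyp1b1. Ahrr held 3 matches, which begin 107, 82 and 27 bases before its start. The search of both strands found the core in 5 of the 6 members with a RefSeq window, and also in 28.2% of all 32851 windows of 250 bases. The extended form TNGCGTG, which contains the core, was found in 1 member, Ahrr, and in 4.1% of all windows. A match of this kind is a description of letters and not a binding site. Ahr and Aldh3a1 have no entry among the windows used.

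Imatinib mice differed from control mice in both Cyp1a genes. Cyp1a1, the inducible aryl hydrocarbon hydroxylase, stood at 0 to 1.69 CPM in the 8 control mice, with a median of 0.963, and at 10.6 to 48.1 CPM in the 8 imatinib mice, with a median of 30.05. In reads, 73 fell on Cyp1a1 in all control libraries together and 1884 in the imatinib libraries. Every imatinib mouse was above every control mouse. Mean levels were 0.898 ± 0.542 CPM (SD, n = 8) and 29.7 ± 14.3 CPM, a log2 fold change of 5.03 (SE 0.72, 95% interval 3.59 to 6.46), or 32.6-fold. Of the 14314 genes tested, it had the largest fold increase with imatinib.

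Cyp1a2, which encodes the enzyme that demethylates caffeine, was abundant in control liver at 429 to 694 CPM with a median of 498. With imatinib it stood at 2696 to 3969 CPM with a median of 3386. The groups again did not overlap. The means were 523 ± 102 and 3359 ± 551 CPM (SD, n = 8 each), a log2 fold change of 2.68 (SE 0.18, 95% interval 2.33 to 3.03), or 6.42-fold. Cyp1a2 ranked 11 by fold increase among the genes tested and had the lowest p-value of all.

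**Figure D1:**
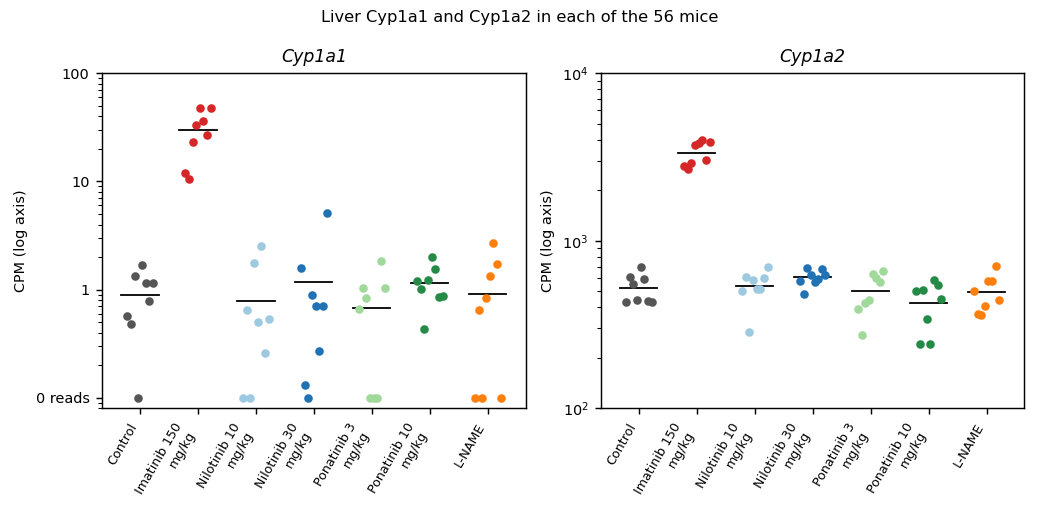
CPM of Cyp1a1 (left) and Cyp1a2 (right) on log axes, with 1 point per mouse in the 7 groups and a bar at the group mean; mice without a Cyp1a1 read are drawn at the foot of the axis. The 8 imatinib mice, at 10.6 to 48.1 and 2696 to 3969 CPM, lie above the 48 other mice in both panels.

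The same separation held against all 48 mice that did not receive imatinib. The highest Cyp1a1 level outside the imatinib group was 5.11 CPM, in the nilotinib 30 mg/kg library that stood apart, and the lowest imatinib mouse was 2.08-fold above it. For Cyp1a2 the highest other level was 710 CPM, in an L-NAME mouse, and the lowest imatinib mouse was 3.8-fold above it. Doses and schedules differed between the drugs, so the groups are set side by side without a comparison of the drugs.

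The fit called 2 of the 6 tested members with imatinib at an adjusted p below 0.05 (edgeR's quasi-likelihood test), Cyp1a1 and Cyp1a2, both higher. Of all genes tested, 10.3% were called in either direction and 5.69% were called higher. Levels did not overlap between the groups for 2 of the 8 members, both higher, beside 0.706% of all genes tested. Since the members were selected on results of these counts, nothing is read from these shares. The median log2 fold change was -0.015 over the 6 tested members and -0.022 over all genes tested. Both calls were made in every alternative fit, with log2 fold changes from 4.84 to 5.23 for Cyp1a1 and from 2.63 to 2.76 for Cyp1a2.

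Within the imatinib group, Cyp1a1 and Cyp1a2 split the mice into the same 4 and 4. In order of rising Cyp1a2, from 2696 to 2791, 2894 and 3038 CPM, Cyp1a1 stood at 10.6, 11.8, 23.2 and 27.0 CPM. In the other 4 mice, with Cyp1a2 at 3734, 3850, 3900 and 3969 CPM, Cyp1a1 stood at 33.1, 48.1, 47.4 and 36.1 CPM. The 4 mice with the highest Cyp1a2 were those with the highest Cyp1a1, while among the 3 highest for Cyp1a2 the order of Cyp1a1 ran the other way. Cyp1a2 left a gap between 3038 and 3734 CPM, and with 4 mice on each side of it the relation was not tested.

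**Figure D2:**
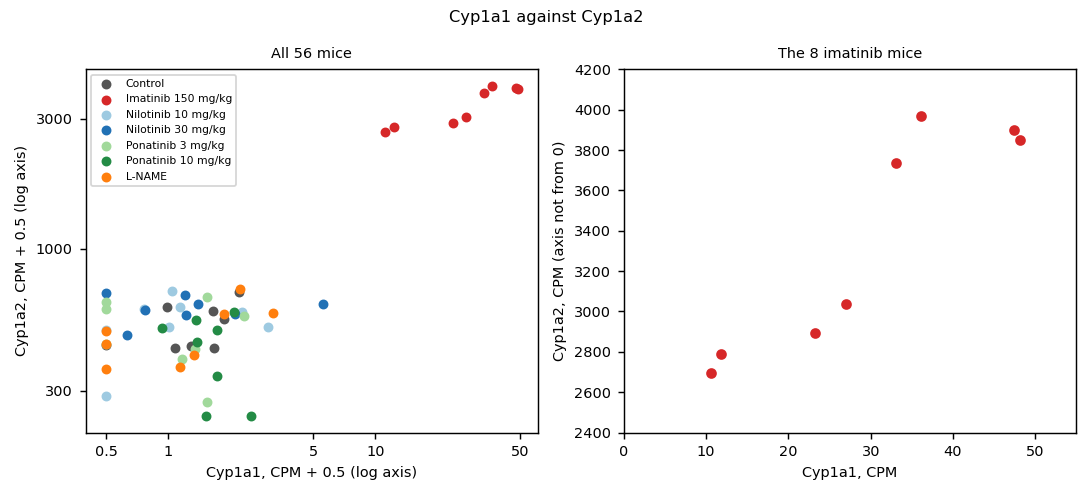
Cyp1a1 on the horizontal and Cyp1a2 on the vertical axis, with 1 point per mouse, for all 56 mice (left, CPM + 0.5, log axes) and for the 8 imatinib mice alone (right, CPM, vertical axis not from 0). The imatinib mice lie apart at the upper right, and among them the 4 with the highest Cyp1a2 have the highest Cyp1a1.

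The pair remained far apart in abundance. Per kilobase of exon, Cyp1a1 stood at 0.322 ± 0.194 CPM and Cyp1a2 at 260 ± 50.7 CPM in control mice (SD, n = 8), and at 10.6 ± 5.14 and 1669 ± 274 CPM with imatinib. The ratio of Cyp1a2 to Cyp1a1 CPM ran from 369 to 1258 in the 7 control mice with a Cyp1a1 read and from 80.0 to 254 in the 8 imatinib mice, so these ranges did not overlap. The imatinib range did overlap with those of ponatinib 10 mg/kg (121 to 1166), nilotinib 30 mg/kg (123 to 3667), nilotinib 10 mg/kg (203 to 2316) and L-NAME (214 to 569), and not with that of ponatinib 3 mg/kg (262 to 641), in the 5 to 8 mice per group with a Cyp1a1 read. The 2 genes are paralogs. Counting left out reads with several equally good alignments, so bases that both genes share count for neither.

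Cyp1b1, the family member found mainly outside hepatocytes, was low in every group. Control mice held 0 to 4.65 CPM (median 2.75) and imatinib mice 0.697 to 2.52 CPM (median 1.93), and the groups overlapped. The log2 fold change was -0.45 (SE 0.73, 95% interval -1.91 to 1.01), so at this depth neither a higher nor a lower level could be told.

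Among the other targets, Tiparp stood at 7.39 to 13.8 CPM (median 8.94) in control mice and at 7.43 to 12.03 CPM (median 9.43) with imatinib, so the ranges nearly coincided. Its log2 fold change was -0.057 (SE 0.28, 95% interval -0.63 to 0.51). Tiparp overlaps a transcribed pseudogene on the opposite strand, 4931440P22Rik, with 335 reads in all 56 libraries beside 5786 for Tiparp.
Aldh3a1 was almost without reads, with 7 in all 56 libraries, of which 1 was in a control mouse and 6 in the deepest L-NAME library. In the imatinib group 0 of its 8 libraries held a read, which allows up to 0.0468 CPM over the group (3 reads, counting error only). A lower level, or a rise that stayed below this floor, was not detectable at this depth.

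The receptor and its partner were not called with imatinib. Ahr stood at 52.9 to 64.9 CPM (median 59.3) in control mice and at 36.4 to 82.7 CPM (median 59.0) in imatinib mice, a wider range around a like median. The log2 fold change was 0.027 (SE 0.15, 95% interval -0.27 to 0.32). Arnt, the partner, stood at 36.9 to 65.2 CPM (median 45.9) in control and 34.0 to 49.5 CPM (median 44.6) in imatinib mice, a log2 fold change of -0.15 (SE 0.13, 95% interval -0.41 to 0.10).
Ahrr, the repressor, did not pass the filter. It had 36 reads in 5 of 8 control mice and 5 reads in 1 of 8 imatinib mice. Without the filter its log2 fold change was -2.08 with a 95% interval from -5.0 to 0.84.

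**Figure D3:**
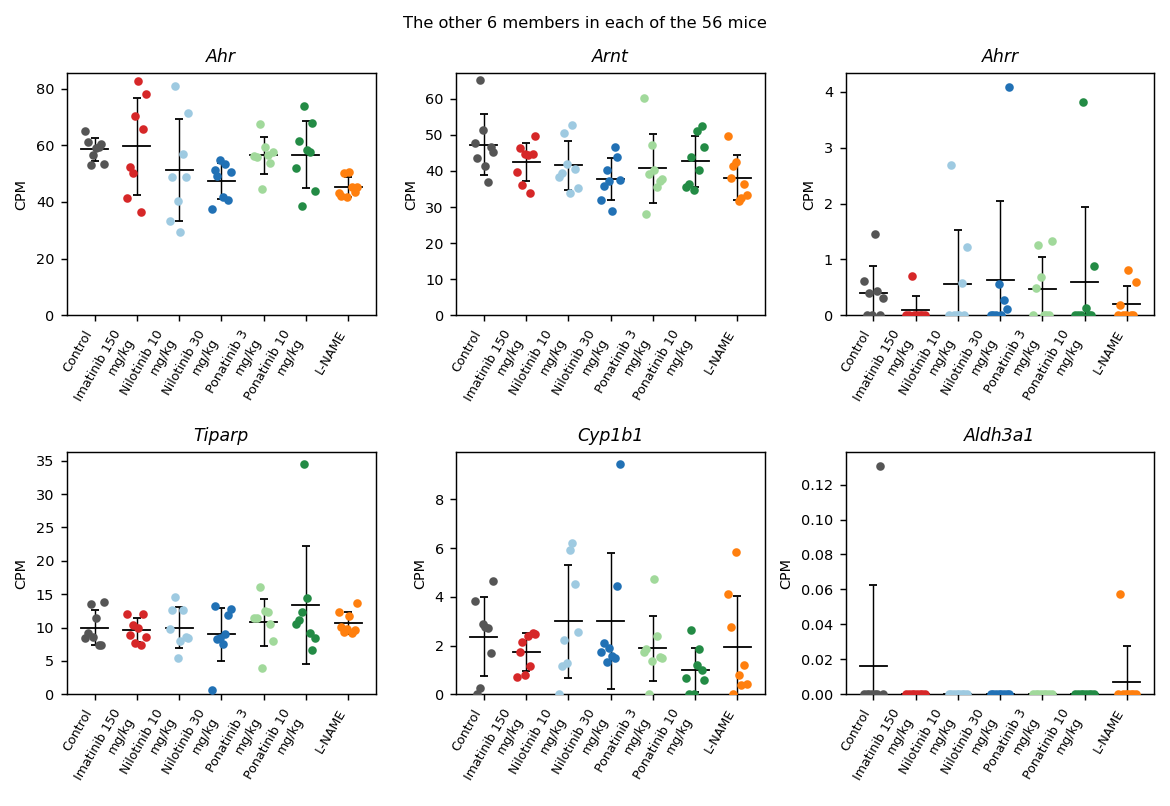
CPM of Ahr, Arnt, Ahrr, Tiparp, Cyp1b1 and Aldh3a1 with 1 point per mouse in the 7 groups, the horizontal bar at the mean and the error bar at 1 SD; the axes start at 0. Each treated group overlaps with control in every panel, except L-NAME in the Ahr panel, and single mice stand out in the nilotinib 30 mg/kg and ponatinib 10 mg/kg groups.

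In the other 5 treated groups no member was called by edgeR. With nilotinib 10 mg/kg 0 of 6 members were called, beside 1.41% of all genes tested, and 0 had an unadjusted p below 0.05. With nilotinib 30 mg/kg 0 were called, beside 5.77% of all genes, and 2 had an unadjusted p below 0.05, Ahr and Arnt. With ponatinib 3 mg/kg 0 were called, beside 0.0419% of all genes, and with ponatinib 10 mg/kg 0 were called, beside 13.1%. In both ponatinib comparisons 0 members had an unadjusted p below 0.05. With L-NAME 0 were called, beside 11.8% of all genes, and 2 had an unadjusted p below 0.05, Ahr and Arnt. DESeq2 also called 0 members in each of these comparisons, and limma voom called 0 except for Ahr with L-NAME. The shares of all genes depend on the fit: with the share of reads outside genes as a covariate 258 genes were called with L-NAME in place of 1688.

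In each of these groups the Cyp1a2 range overlapped with that of control mice. Its mean was 604 ± 65.8 CPM with nilotinib 30 mg/kg, 538 ± 121 with nilotinib 10 mg/kg, 500 ± 136 with ponatinib 3 mg/kg, 492 ± 122 with L-NAME and 427 ± 135 with ponatinib 10 mg/kg (SD, n = 8 each), beside 523 ± 102 in control. Below imatinib, neighbours in the order of the means differed by less than the larger of their 2 SDs and their ranges overlapped. Log2 fold changes ran from -0.29 with ponatinib 10 mg/kg (SE 0.16, 95% interval -0.62 to 0.036) to 0.21 with nilotinib 30 mg/kg (SE 0.16, 95% interval -0.12 to 0.54). The highest upper bound among these 5 groups was a 1.45-fold increase.

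Cyp1a1 in these groups stayed near the floor of detection. Group means ran from 0.675 ± 0.652 CPM with ponatinib 3 mg/kg to 1.18 ± 1.67 with nilotinib 30 mg/kg (SD, n = 8), and between 46 and 119 reads fell on the gene in a whole group. In the ponatinib 10 mg/kg group each of the 8 mice had a read, and in the other 4 groups 1 to 3 mice had 0 reads. The log2 fold changes ran from -0.39 with ponatinib 3 mg/kg up to 0.39 with nilotinib 30 mg/kg, and their SEs from 0.64 to 0.70. The nilotinib 30 mg/kg value rested on 1 library, replicate 8, which stood apart. Without it the log2 fold change was -0.54.

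**Figure D4:**
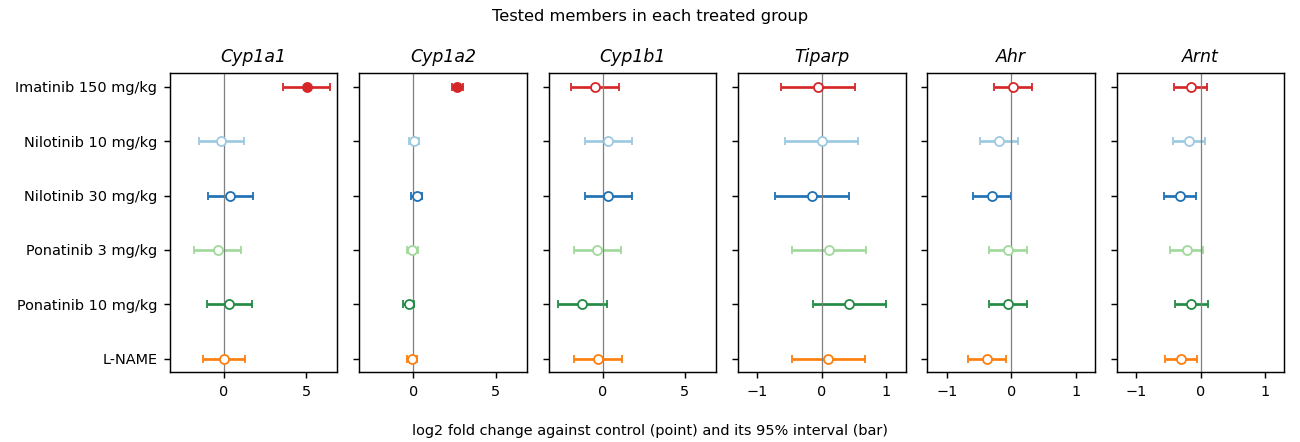
Log2 fold change against control (point) with its 95% interval (bar) for the 6 tested members in each of the 6 treated groups; filled points were called at an adjusted p below 0.05, and the horizontal scale is narrower for Tiparp, Ahr and Arnt. Only the imatinib points of Cyp1a1 (5.03) and Cyp1a2 (2.68) are filled.

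Ahr was lower with L-NAME in every mouse, though not called. L-NAME mice held 41.7 to 50.6 CPM (median 44.4) and control mice 52.9 to 64.9 CPM (median 59.3), and the groups did not overlap. Of all genes tested, 1.57% were lower without overlap in this comparison. The log2 fold change was -0.37 (SE 0.15, 95% interval -0.67 to -0.078). Limma voom with quality weights and the fit of these 2 groups alone both called it, at adjusted p-values of 0.0183 and 0.00662. These 2 fits also called more genes in all with L-NAME, 3737 and 2440, beside 1688 in the main fit. Arnt was at 31.5 to 49.6 CPM (median 37.2) with L-NAME and overlapped with control, with a log2 fold change of -0.31 (SE 0.13, 95% interval -0.56 to -0.051).

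The receptor and its partner were also lower on average with nilotinib 30 mg/kg, and neither was called. Ahr stood at 37.6 to 54.6 CPM (median 49.9), a log2 fold change of -0.31 (SE 0.15, 95% interval -0.60 to -0.011), and Arnt at 28.9 to 46.6 CPM (median 37.4), a log2 fold change of -0.32 (SE 0.13, 95% interval -0.58 to -0.065). Both ranges overlapped with control. These comparisons share their control mice, so the values of the 2 groups are not independent.

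The log2 fold changes of Cyp1b1 and Tiparp against control were larger in size with ponatinib 10 mg/kg than with the other 5 treatments, and neither was called. Cyp1b1 stood at 0 to 2.62 CPM (median 0.833), with 68 reads in the group beside 224 in control, a log2 fold change of -1.24 (SE 0.75, 95% interval -2.74 to 0.25). Tiparp had a log2 fold change of 0.42 (SE 0.28, 95% interval -0.14 to 0.99), which was 0.056 without replicate 4, a library that stood apart with 34.6 CPM beside 6.68 to 14.4 in the other 7 mice. Aldh3a1 had 0 reads in all 8 libraries of each nilotinib and ponatinib group, and Ahrr had 30 to 40 reads in each of these groups.

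Between doses of 1 drug, 0 of 6 members were called by edgeR. Nilotinib 30 against 10 mg/kg, where 0% of all genes tested were called, gave log2 fold changes of 0.17 for Cyp1a2 (SE 0.16, 95% interval -0.16 to 0.50) and 0.54 for Cyp1a1 (SE 0.69, 95% interval -0.84 to 1.93). Ponatinib 10 against 3 mg/kg, where 1.39% of all genes were called, gave -0.23 for Cyp1a2 (SE 0.16, 95% interval -0.56 to 0.10) and 0.73 for Cyp1a1 (SE 0.70, 95% interval -0.68 to 2.13). In both comparisons 0 members had an unadjusted p below 0.05, and DESeq2 and voom called 0.
The drugs could be compared at matched nominal dose and schedule for 1 pair, ponatinib and nilotinib at 10 mg/kg in 1 gavage per day. Here 0 of 6 members were called by edgeR, DESeq2 or voom, beside 2.06% of all genes in edgeR, and 2 members had an unadjusted p below 0.05. Cyp1b1 had a log2 fold change of -1.58 (SE 0.75, 95% interval -3.08 to -0.072) and Cyp1a2 one of -0.33 (SE 0.16, 95% interval -0.66 to -0.0043), both lower with ponatinib, while Cyp1a1 differed by 0.49 (SE 0.69, 95% interval -0.89 to 1.88). Markers of stellate and sinusoidal endothelial cells were lower in the same comparison (Col1a1, Col3a1 and Lrat among 8, and Stab2 and Clec4g among 6), and their part in the Cyp1b1 value was not tested. The summed stellate list was at 168 to 592 CPM with ponatinib and 519 to 1157 CPM with nilotinib.

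Beyond the members, 16 genes known as targets of AHR in liver were followed as a list, and all 16 were tested. With imatinib 1 was called higher, 1 lower and 14 were not called, with a median log2 fold change of 0.26 beside -0.022 over all genes. Htatip2, an oxidoreductase gene, was higher, at 105 to 178 CPM beside 41.8 to 69.2 in control without overlap (log2 fold change 1.21, SE 0.18, edgeR adjusted p = 4.51e-06). Ugt1a6b, a glucuronosyltransferase gene of the Ugt1a cluster, was lower, at 6.13 to 19.03 CPM beside 19.1 to 25.5 (log2 fold change -0.76, SE 0.24, edgeR adjusted p = 0.0313). Its copy Ugt1a6a had a log2 fold change of 0.67 and was not called, and reads shared by the copies make both values uncertain. Nqo1, a quinone reductase gene shared with the NRF2 pathway, stood at 15.0 to 30.2 CPM beside 10.03 to 47.9 in control (log2 fold change 0.027, SE 0.30) and was not called.
In the other groups the listed targets that were called were all lower. Ugt1a6b was called with nilotinib 30 mg/kg (log2 fold change -1.10), ponatinib 10 mg/kg (-0.91) and L-NAME (-1.20). Cd36, a fatty acid transporter gene, was called with ponatinib 10 mg/kg (-0.60) and L-NAME (-0.56), as was Ugdh, which makes the substrate of glucuronidation (-0.86 and -0.84). Gsta2 was called with ponatinib 10 mg/kg (-1.65). Nilotinib 10 mg/kg and ponatinib 3 mg/kg had 0 of 16 called by edgeR, with 2 and 7 at an unadjusted p below 0.05.

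Of 9 genes of the receptor complex and its partners 8 were tested, and 1 was called with imatinib. Ptges3, which encodes the co-chaperone p23, was at 44.6 to 78.1 CPM beside 32.4 to 49.7 in control (log2 fold change 0.52, SE 0.14, edgeR adjusted p = 0.0137). Ptges3 was also called higher with nilotinib 30 mg/kg (0.51), ponatinib 10 mg/kg (0.55) and L-NAME (0.58). With L-NAME, Hsp90aa1 (-1.03), Hsp90ab1 (-0.36) and Hif1a (-0.55) were called lower, and Hsp90ab1 was called lower with ponatinib 10 mg/kg (-0.35).
Enzymes of tryptophan and kynurenine metabolism formed a list of 8, of which 7 were tested. With imatinib 0 of 7 were called by edgeR and 0 had an unadjusted p below 0.05, with log2 fold changes from -0.41 for Kynu to 0.069 for Il4i1. Tdo2, the main tryptophan dioxygenase of liver, and Ido2 were called lower with ponatinib 10 mg/kg (-0.56 and -0.48) and L-NAME (-0.51 and -0.52), and Aadat with ponatinib 10 mg/kg (-0.51).

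Genes of the constitutive androstane receptor and the pregnane X receptor (CAR and PXR), the other drug-sensing receptors of liver, were set beside the members. Of 10 listed genes 9 were tested, and with imatinib 3 were called higher and 0 lower, with a median log2 fold change of 0.45. Cyp2b10, a marker of CAR activity, stood at 8.54 to 67.7 CPM with imatinib and 0 to 8.22 in control, without overlap (log2 fold change 2.96, SE 0.64, edgeR adjusted p = 0.00151). Cyp3a11, the main PXR target, was at 2000 to 2700 CPM beside 1315 to 1855 (log2 fold change 0.56, SE 0.13, edgeR adjusted p = 0.00312), and Cyp2c29 at 1009 to 2151 beside 540 to 1128 (0.65, SE 0.17, edgeR adjusted p = 0.0074). In other groups Cyp3a11 was called higher with nilotinib 30 mg/kg (0.45) and Gstm3 lower with ponatinib 10 mg/kg (-1.53). Cyp3a11 was lower (-0.46) and Cyp2b9 higher (0.66) with ponatinib than with nilotinib at 10 mg/kg.

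**Figure D5:**
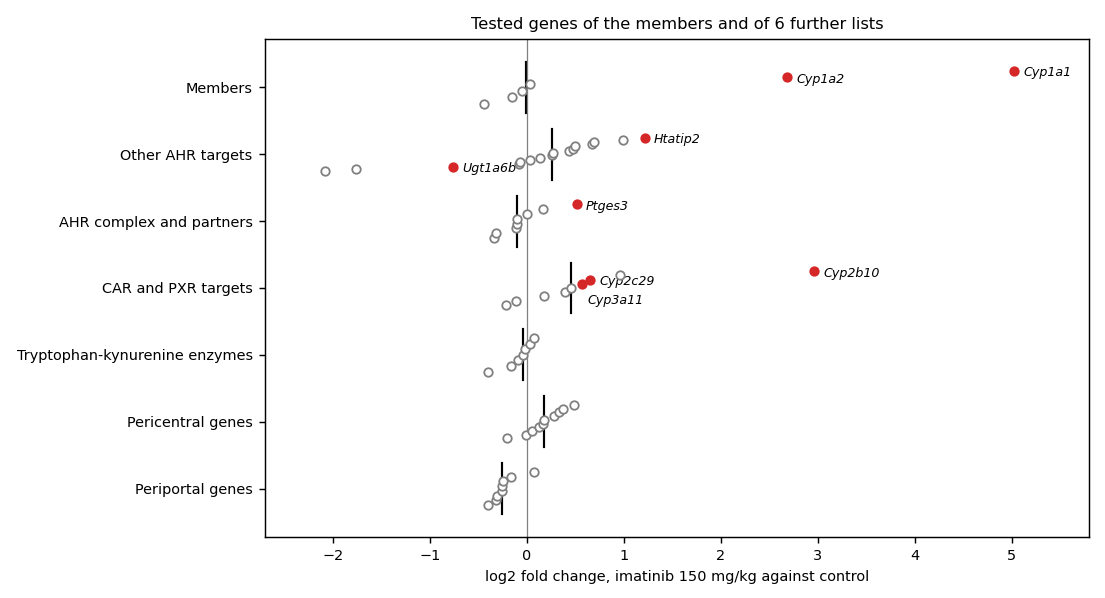
Log2 fold change with imatinib against control for each tested gene of the members and of 6 further lists, 1 point per gene, filled and named where called at an adjusted p below 0.05, with a vertical bar at the list's median. Cyp1a1 (5.03), Cyp2b10 (2.96) and Cyp1a2 (2.68) lie farthest to the right, and no gene of the kynurenine, pericentral or periportal lists is filled.

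Position in the liver lobule was checked because Cyp1a2 is a pericentral gene. With imatinib 0 of 10 pericentral and 0 of 8 periportal genes were called by edgeR (2 and 0 at an unadjusted p below 0.05), with median log2 fold changes of 0.17 and -0.26. Their summed levels overlapped with control, at 11666 to 15299 beside 7550 to 16854 CPM for pericentral genes and 3356 to 5504 beside 3193 to 6350 CPM for periportal genes. Elsewhere, Glul, the glutamine synthetase gene of the innermost pericentral hepatocytes, was called lower with L-NAME (-0.41) and Oat with ponatinib 10 mg/kg (-0.73). Of the periportal genes, Cyp2f2 was called lower with ponatinib 10 mg/kg (-0.76) and L-NAME (-0.81), Cdh1 with ponatinib 10 mg/kg (-0.87), and Arg1 (-0.41) and Gls2 (-0.67) with nilotinib 30 mg/kg.

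Markers of hepatocytes were abundant in every group, and some markers of other cell types were lower with imatinib. Summed hepatocyte markers stood at 88714 to 131664 CPM beside 72395 to 131453 in control, with Apoa1, Ttr and Serpina1a called higher and Tat and Cps1 lower among 6. Of 8 stellate markers 2 were called lower, Col1a1 (-3.03) and Col3a1 (-2.60), and the sum was 320 to 497 CPM beside 403 to 1082. This was not particular to imatinib: both were also called lower with ponatinib 10 mg/kg, and Col1a1 with ponatinib 3 mg/kg. Mean Col1a1 was 14.8 CPM with ponatinib 10 mg/kg and 20.5 with ponatinib 3 mg/kg, beside 12.5 with imatinib and 101 in control. Of 5 Kupffer cell markers Adgre1 (-1.35) and Cd5l (-1.23) were called lower with imatinib, with a sum of 337 to 749 CPM beside 637 to 1180. Cd5l, at a mean of 254 CPM beside 595 in control, made up most of the lower sum, and Clec4f (206 beside 183 CPM), Vsig4 (44.1 beside 52.6 CPM) and Timd4 (13.1 CPM in both groups) were not called. Of 5 leukocyte markers Ptprc (-0.98) was called lower, with a sum of 17.6 to 30.1 CPM beside 24.7 to 52.0. Of 6 sinusoidal endothelial and 5 cholangiocyte markers 0 were called by edgeR, with 1 and 0 at an unadjusted p below 0.05. Lgals4 (1.31) of the gut list was called higher, while Cdx2 had no read in either group and the list's sum was 87.3 to 219 CPM beside 54.5 to 129. The pancreatic list was at 0 to 2.52 CPM. The part of these shifts in the Cyp1a values was not tested.

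The genes most like Cyp1a1 in level over the 56 mice were Cyp1a2 (Pearson's r of log2 CPM 0.849), Ces2e (0.723), Htatip2 (0.687), Pgrmc1 (0.665) and Cyp2b10 (0.646). For Cyp1a2 they were Cyp1a1 (0.849), Ces2e (0.777), Pgrmc1 (0.766), Htatip2 (0.752) and Ces1b (0.749). These values rest largely on the imatinib group, which lies apart, and the mice share the library scaling. After subtraction of group means, r with Cyp1a1 was 0.139 to 0.243 for its 5 genes, and r with Cyp1a2 was 0.224 to 0.628, highest for Ces1b. With imatinib Ces2e, a carboxylesterase gene, went from 189 ± 17.8 to 362 ± 91.7 CPM and Ces1b from 61.0 ± 7.17 to 103 ± 15.5 CPM (SD, n = 8). Pgrmc1, which encodes a heme-binding protein that interacts with cytochromes P450, went from 1044 ± 53.3 to 1241 ± 59.9 CPM.

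Neighbours of the pair on chromosome 9 did not share the size of its difference. Within 200 kb of the Cyp1a2 start, a window chosen after the values were seen, 10 of 15 other genes were tested, and with imatinib 2 were called higher and 1 lower. Cox5a had a log2 fold change of 0.44, Clk3 one of 0.42 and Scamp2 one of -0.62. The nearest tested neighbours, Csk beside Cyp1a2 (0.096, SE 0.098) and Edc3 beside Cyp1a1 (0.017, SE 0.18), were not called.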

How the data were processed

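Liver poly(A) RNA of 56 female mice, 8 in each of 7 groups, was sequenced, and the groups were taken from the sample labels. The authors deposited read counts per gene, whole numbers without normalization, made per the labels with TopHat2 2.0.14, Bowtie2 2.1.0, SAMtools 0.1.18 and HTSeq 0.6.1p1 on GRCm38. The strand setting of the counting is not given in the sources used here. Ensembl identifiers were matched to GENCODE vM21 symbols (44671 of 45513). The summary lines of each file (no feature, ambiguous, not unique) stayed out of library sizes. Reads outside genes made up 7.55% to 16.8% and ambiguous reads 2.01% to 3.65% of uniquely aligned reads.

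Counts were fitted with edgeR 4.0.16 (quasi-likelihood test, TMM normalization, filterByExpr with a minimum count of 10, 14314 genes, all 56 mice in 1 fit), in R 4.3.3, and a gene was called at a Benjamini-Hochberg adjusted p below 0.05 over all genes tested. The 9 comparisons set each treated group against control, the doses of each drug against each other, and ponatinib against nilotinib at 10 mg/kg. Each mouse is 1 library, so p-values measure the spread between mice. The 8 members and all gene lists were chosen with earlier results of these data known. From each further list other than the cell markers the called genes were named, at most 4 per comparison, by size of the log2 fold change. All called cell markers were named with imatinib and between ponatinib and nilotinib at 10 mg/kg. Called stellate markers were also named with both ponatinib doses, and other called markers were not named. Genes not called were named as context after their values were seen. The 5 genes with the highest Pearson's r (log2 CPM with 0.5 added) were named for Cyp1a1 and Cyp1a2. Alternatives were other normalizations, no filter, DESeq2 1.42.0, limma 3.58.1 (voom with quality weights), fits of fewer groups, the share of reads outside genes as a covariate, an unadjusted p below 0.01 (the study's cut-off), leaving out each library, and, chosen after seeing the data, leaving out 6 libraries that stood apart. The fit was tested on simulated counts. Permutation tests used scipy 1.17.1. Promoter sequences are RefSeq's (GRCm38.p6). Intervals and floors for counts cover counting error only.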

Additional observations from a re-analysis of the deposited data

Results flagged for a closer look

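In 11 of the 51 sets of 8 mice in which a member's level varied, the highest or the lowest mouse lay far from the rest by Dixon's test. Chance gives about 1 in 20 for normally distributed values, which does not apply to the 7 of the 11 that are Ahrr or Aldh3a1, genes with many mice at 0 reads: with 7 of 8 mice at 0, as in 3 of these sets, a single mouse with a read is marked by construction. Of the 11, 6 fell on libraries that stood apart. In the nilotinib 30 mg/kg group replicate 8 was high for 3 members. It held 5.11 CPM of Cyp1a1 (next mouse 1.59), 9.45 CPM of Cyp1b1 (next 4.46) and 4.09 CPM of Ahrr (next 0.557). In the ponatinib 10 mg/kg group replicate 4 held 34.6 CPM of Tiparp (next 14.4) and 3.81 CPM of Ahrr (next 0.876). Replicate 1 of nilotinib 30 mg/kg was low for Tiparp at 0.661 CPM, from 5 reads, beside 7.54 CPM in the next mouse. Ahrr was also high in 1 control mouse (1.45 CPM, 12 reads), 1 nilotinib 10 mg/kg mouse (2.7 CPM, 21 reads) and 1 imatinib mouse (0.712 CPM, 5 reads, the other 7 at 0). Aldh3a1 was flagged in control at 0.13 CPM, from 1 read, and in L-NAME at 0.0575 CPM, from 6 reads in the deepest library, with the other mice at 0. No imatinib mouse was flagged for Cyp1a1 or Cyp1a2. None of these values was explained further.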

How the results depend on the processing

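The 2 calls with imatinib were made under each alternative that was run. The number of members called was 0 in the other 8 comparisons throughout, except with L-NAME, where it became 1 (Ahr) with limma voom and in the fit of the compared groups alone. The number of all genes called moved more. With the share of reads outside genes as a covariate it fell from 1471 to 653 with imatinib, 202 to 13 and 826 to 96 with nilotinib 10 and 30 mg/kg, 1877 to 369 with ponatinib 10 mg/kg and 1688 to 258 with L-NAME. With voom it rose to 3327, 1240, 2349, 3743 and 3737, and from 6 to 571 with ponatinib 3 mg/kg. With nilotinib 10 mg/kg it was 127 without the filter, 504 with DESeq2 and 343 without the 6 libraries, and with nilotinib 30 mg/kg 1376 in the fit of the compared groups alone. With ponatinib 3 mg/kg it was 14 without the filter, 48 with DESeq2 and 0 in the fit of the compared groups alone and without the 6 libraries, and between the ponatinib doses (199) from 0 with the covariate to 995 with voom. Between ponatinib and nilotinib at 10 mg/kg (295) it was 518 with DESeq2 and 48 in the fit of those groups alone. No paired analysis was made, because each library is a separate mouse in 1 of 7 groups and the labels give no pairs. The labels number the libraries through the whole series, so the replicate numbers used here were counted within each group.

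Signs under the alternatives were followed for 30 member differences, which do not cover every tested member in every comparison. Of these 30, 10 changed sign under some alternative, and none of these 10 was called in any fit. Cyp1a1 with L-NAME (-0.0028) became 0.015 with RLE factors, 0.027 with upper-quartile factors, 0.025 with DESeq2, 0.32 with the covariate and 0.086 without the 6 libraries, and ran from -0.46 to 0.17 over single left-out libraries. Voom gave -0.37 for Cyp1a1 and -0.068 for Cyp1b1 with nilotinib 30 mg/kg and 0.044 for Cyp1a2 with L-NAME. The covariate gave -0.0097 for Cyp1a2 with nilotinib 10 mg/kg. Without the 6 libraries Cyp1a1 was 0.23 with nilotinib 10 mg/kg, -0.53 with nilotinib 30 mg/kg and -0.76 between the nilotinib doses, and Cyp1b1 was -0.19 with nilotinib 30 mg/kg. Over single left-out libraries, the range was -0.059 to 0.10 for Ahr and -0.11 to 0.022 for Tiparp with imatinib, -0.70 to 0.021 for Cyp1a1 and -0.027 to 0.13 for Cyp1a2 with nilotinib 10 mg/kg, -0.54 to 0.57 for Cyp1a1 and -0.20 to 0.54 for Cyp1b1 with nilotinib 30 mg/kg, -0.37 to 1.08 for Cyp1a1 between the nilotinib doses and -0.14 to 0.024 for Cyp1a2 with ponatinib 3 mg/kg. The cause was not tested. Depth limits Cyp1a1 outside the imatinib group, Cyp1b1, Ahrr and Aldh3a1.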
